A study of Mus musculus with 8 samples.

Results

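miR-204 and miR-211 are a pair of closely related microRNAs (miRNAs) whose hairpins lie inside genes for TRPM cation channels. They were followed here as the 3 mature mouse miRNAs mmu-miR-204-5p, mmu-miR-204-3p and mmu-miR-211-5p (below without the prefix for mouse), chosen by name among the miRNAs of the array. These are 3 of 1881 miRNAs and are read by 8 of 4415 probes, all of which are described. RNA came from whole kidneys of 8-week-old male C57BL/6 mice, taken 7 days after surgery. In 4 samples the surgery was unilateral ureteral obstruction (UUO), in which the ureter of 1 kidney is tied, and in 4 it was a sham operation (Sham 1, 2, 3 and 8). One Agilent 1-colour array was run per sample, and the question was how the miRNAs of the obstructed kidney differ from those after sham surgery. The labels do not state that each sample came from a different mouse, so the p-values measure the spread between these samples, which may be technical. The number of arrays limits the precision.

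A miRNA hairpin yields a 5p and a 3p arm, of which 1 is usually kept in the silencing complex as the guide and the other mostly discarded. The guide finds its target messages mainly through its seed, bases 2 to 8 from its 5′ end, so that miRNAs with the same seed are grouped as a family. miR-204-5p is known from the retinal pigment epithelium, the lens, the choroid plexus, pancreatic islets and the kidney, where it is linked to the differentiated state of epithelia, and its hairpin is made from the transcript of Trpm3. miR-211-5p is known above all from melanocytes and the retinal pigment epithelium, and its hairpin is made from the transcript of Trpm1, a gene under the control of the pigment cell factor MITF.

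The mature sequences are shown because the measurement turns on how far the related miRNAs can be told apart. They are from RefSeq (GRCm38.p6), run 5′ to 3′ and have the seed in capitals. All 3 miRNAs were matched in the RefSeq table, and the other arm of miR-211, which is not among the 3, is given for comparison.
miR-204-5p: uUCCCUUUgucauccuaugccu
miR-211-5p: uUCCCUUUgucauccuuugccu
miR-204-3p: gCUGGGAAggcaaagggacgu
miR-211-3p: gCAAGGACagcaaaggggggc
The 5p arms are both 22 bases long and share the seed UCCCUUU. They differ at 1 base, A17U, where the base of miR-204-5p comes first, then the position from the 5′ end, then the base of miR-211-5p. Of the 1679 mature mouse miRNAs in the table, 3 carry this seed, the third being miR-7670-3p. The 3p arms are both 21 bases long, are identical at 14 positions and do not share a seed. The seed of miR-204-3p, CUGGGAA, occurs also in miR-7684-5p and in no other entry of the table. On the arrays neither miR-7670-3p nor miR-7684-5p was detected on any of the 8.

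The hairpins show where the arms lie, with both arms of each in capitals. They are 68 and 106 bases long.
Mir204: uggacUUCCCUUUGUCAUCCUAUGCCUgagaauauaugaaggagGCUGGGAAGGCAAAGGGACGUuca
Mir211: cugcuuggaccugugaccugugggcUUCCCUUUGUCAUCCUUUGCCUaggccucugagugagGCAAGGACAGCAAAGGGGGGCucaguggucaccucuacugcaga
On GRCm38.p6 the Mir204 hairpin is at chr19:22750605-22750672 on the plus strand, 612.8 kb from the start of Trpm3, whose annotated span is chr19:22137797-22995410. The Mir211 hairpin is at chr7:64205806-64205911 on the plus strand, 52.0 kb from the start of Trpm1, which spans chr7:64153835-64269772. Both hairpins lie inside the annotated span of their host gene. Exon positions were not used here.

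The array reads each miRNA with short DNA probes complementary to its 3′ part. The probes of both 5p arms that have the same length are shown, with the base in capitals at which they differ.
miR-204-5p, 20-base probe: aggcaTaggatgacaaaggg
miR-211-5p, 20-base probe: aggcaAaggatgacaaaggg
Counted from the 5′ end of the probe, the difference is T6A, with the base of the miR-204-5p probe first. miR-204-5p had a 19-base and a 20-base probe, and miR-211-5p had probes of 19, 20, 21 and 22 bases. miR-204-3p had probes of 14 and 15 bases. Every one of these probes was the exact complement of the 3′ part of its own mature sequence. Among the other 1880 miRNAs of the array, the probes nearest to those of miR-204-5p were those of miR-211-5p at 1 base, miR-6920-3p at 5 bases and miR-5129-3p at 6 bases. For miR-211-5p the nearest were miR-204-5p at 1 base, miR-6920-3p at 5 and miR-3112-3p at 6. For miR-204-3p they were miR-211-3p at 4 bases, miR-6998-5p at 4 and miR-1251-5p at 5. Apart from miR-204-5p and miR-211-3p, none of these neighbours was detected on any array.

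Of the 3 miRNAs, only miR-204-5p was detected. Each had 30 spots per array, 240 in all. For miR-204-5p all 240 spots were well above background by the scanner software's call, whereas for miR-204-3p and for miR-211-5p 0 of 240 were. Signal was thus seen at the probes with the miR-204-5p base and not at the probes that differ from them at that 1 base. The filter for testing, detection on at least 4 of 8 arrays, was passed by 408 miRNAs of the array and by 1 of the 3 miRNAs described here.

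Across the arrays 720 to 800 probes were detected, 740 to 800 in UUO and 720 to 754 in Sham. No spot was saturated. The 75th percentile of the intensity over the 623 probes detected everywhere was 465 ± 22.2 in UUO and 406 ± 8.70 in Sham (SD, n = 4 each). All arrays were on 1 slide, with the UUO arrays in 1 row of it and the Sham arrays in the other, so slide row and group cannot be told apart. In the tissue check, the epithelial miR-200 family and the kidney-enriched miRNAs were detected on all 8 arrays with the exception of miR-215-5p.

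Before any scaling, miR-204-5p was brighter in every UUO sample than in every Sham sample. At the 20-base probe the processed intensity, in arbitrary units of the scanner, was 117.1, 112.5, 107.7 and 124.1 in UUO 1 to 4, against 92.35, 91.58, 94.58 and 96.01 in Sham 1, 2, 3 and 8. The means were 115.4 ± 6.98 in UUO and 93.63 ± 2.03 in Sham (SD, n = 4 each). The groups did not overlap, and the difference was 0.30 on the log2 scale. An exact permutation test (2-sided) gave p = 0.0286, the smallest that the 70 possible splits of 4 against 4 allow. At the 19-base probe the intensity was 62.18, 57.90, 51.49 and 61.17 in UUO 1 to 4, against 48.02, 45.47, 48.64 and 49.48 in Sham 1, 2, 3 and 8. There too the lowest UUO value, that of UUO 3, was above the highest Sham value. The detected probes as a whole were also brighter in UUO: over all 408 tested miRNAs the median difference without scaling was 0.26 on the log2 scale.

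Once the intensities were scaled to the 75th percentile of an array's detected probes (those seen on all 8 arrays), little of the difference at miR-204-5p was left. The scaled log2 signal of the 20-base probe was -2.04, -1.95, -2.10 and -1.96 in UUO 1 to 4, against -2.16, -2.11, -2.09 and -2.10 in Sham 1, 2, 3 and 8. Now the groups overlapped, since UUO 3 lay among the Sham samples, and the other 3 UUO samples were above all of them. The means were -2.01 ± 0.07 in UUO and -2.12 ± 0.03 in Sham (SD, n = 4 each). UUO minus Sham was 0.10 ± 0.05 on the log2 scale (SE), which is 1.08-fold, and limma gave an adjusted p of 0.0906 over 408 tests. The 95% interval, -0.01 to 0.22 on the log2 scale, runs from 0.994-fold to 1.16-fold. The exact permutation test (2-sided) gave p = 0.0571. Without UUO 3 the difference was 0.13 with an adjusted p of 0.0458 in limma, so that this 1 sample decided the side of the 0.05 threshold. The call also depended on the scaling, as described further on.

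Most miRNAs that could be tested passed this threshold. In the same fit 67.4% of the 408 tested miRNAs were called, 39.7% higher and 27.7% lower in UUO, and for 61.3% the groups did not overlap. miR-204-5p was thus among the 133 miRNAs that were not called. The median change of all tested miRNAs was 0.06 on the log2 scale, and 17.2% of them had a change closer to 0 than that of miR-204-5p. The middle 90% of the changes ran from -1.0 to 1.52.

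**Figure D1:**
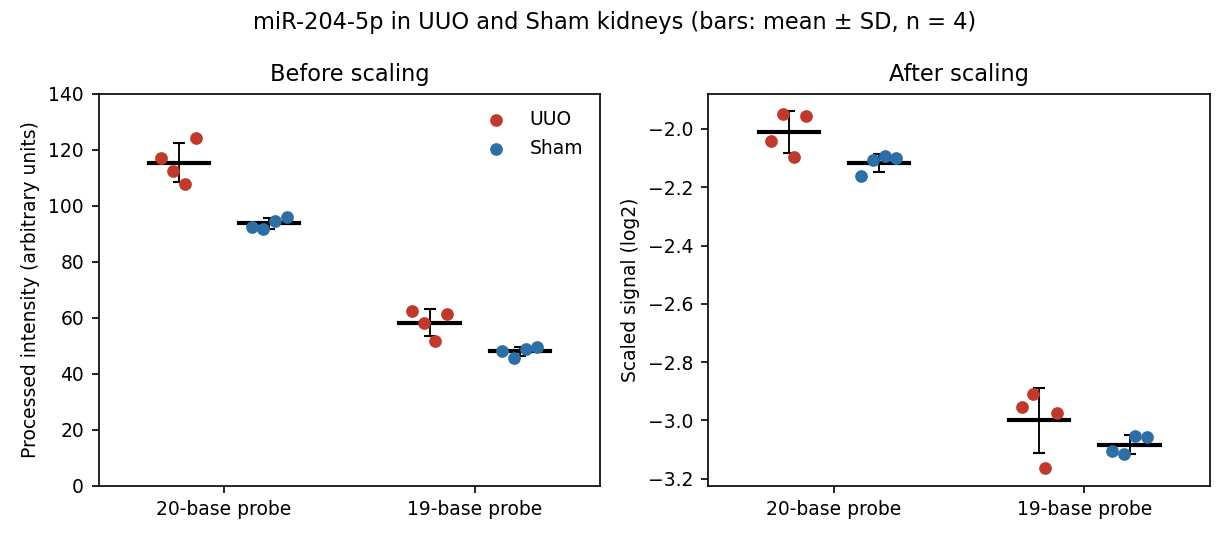
miR-204-5p in UUO (red) and Sham (blue) kidneys at its 2 probes. The left panel shows the processed intensity in arbitrary units, starting at 0, and the right panel the scaled log2 signal. Points are samples, and bars are the mean and SD (n = 4 each). Before scaling, the UUO samples at the 20-base probe lay between 107.7 and 124.1 and all Sham samples below them. After scaling, UUO 3 lay within the Sham range.

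Both probes of miR-204-5p gave a small difference that was not called. At the 19-base probe the scaled log2 signal averaged -3.0 ± 0.11 in UUO and -3.08 ± 0.03 in Sham (SD, n = 4 each). UUO minus Sham was 0.08 ± 0.06 (SE, 95% interval -0.06 to 0.22), with an adjusted p of 0.258 in limma over 771 probes, and the groups overlapped. Within each array the 20-base probe exceeded the 19-base probe by 0.99 ± 0.07 log2 units in UUO and 0.97 ± 0.03 in Sham, a difference within the spread between samples (exact permutation p = 0.543). The 15 spots of a probe on an array varied by 3.23 to 8.57% (coefficient of variation) at the 20-base probe and by 5.36 to 10.9% at the 19-base probe.

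The direction of the change of miR-204-5p between groups was set by how the arrays were put on 1 scale. Over 8 scalings its UUO minus Sham difference was above 0 in 5 and below 0 in 3, and it was called higher in 3 and lower in 3. The scalings that called it higher were no scaling (0.30 on the log2 scale, adjusted p = 0.00164 in limma), the 75th percentile over all mouse probes (0.24, adjusted p = 0.0230) and that over a set of control features of the array named dmr (0.40, adjusted p = 0.000897). Those that called it lower were quantile normalization (-0.29, adjusted p = 0.0105 in limma), the software's total signal per miRNA (-0.24, adjusted p = 0.0121) and the table of values the authors deposited (-0.20, adjusted p = 0.0381). With normexp background correction the difference was 0.02 (adjusted p = 0.537). The median of all tested miRNAs moved along, from -0.23 with the total signal to 0.35 with the dmr features. Relative to that median, miR-204-5p stood between -0.01 and 0.05 under 7 of the 8 scalings and at -0.25 under quantile normalization. No direction of change of miR-204-5p between UUO and Sham kidneys is therefore given here.

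**Figure D2:**
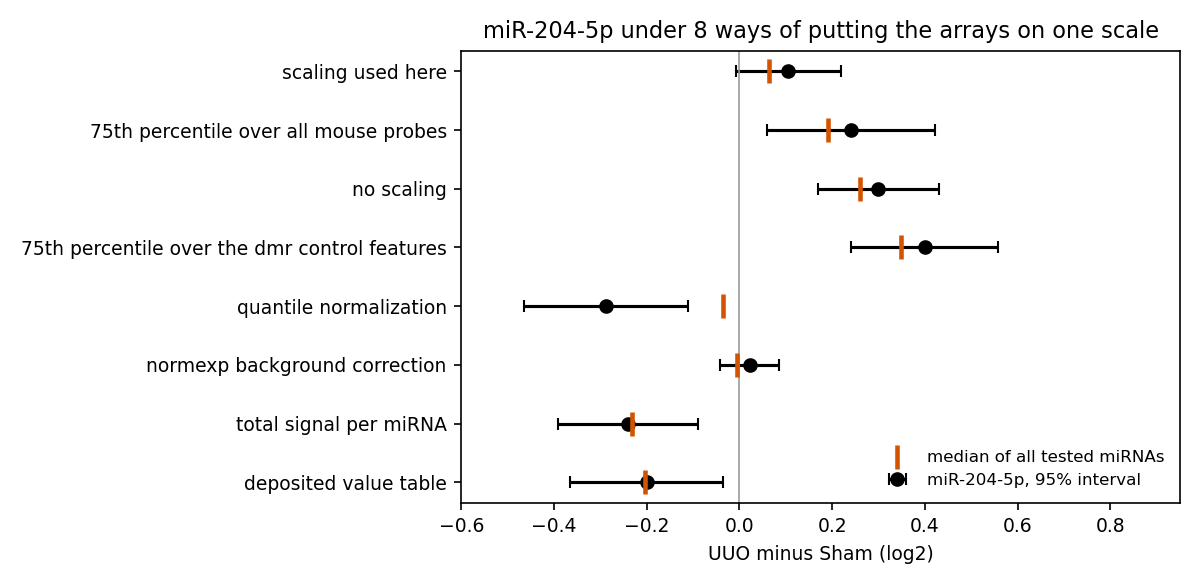
UUO minus Sham difference of miR-204-5p on the log2 scale (x axis) under 8 ways of putting the arrays on 1 scale (y axis). Points are the estimates with 95% intervals from limma (n = 4 each), and orange ticks are the median over all tested miRNAs. The estimates run from -0.29 to 0.40, and under every scaling but quantile normalization they lie close to the tick.

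miR-204-5p was set against 4 other miRNAs typical of the kidney, all of which were lower in UUO, within each array, where a scaling by 1 factor per array cancels out. miR-192-5p and miR-194-5p are made from shared clusters and are abundant in the kidney tubule and the gut. miR-30a-5p is the guide arm of a member of the miR-30 family, abundant in the kidney epithelium, and miR-190a-5p is made from an intron of the talin gene Tln2. The log2 signal of 1 probe minus that of another is not a ratio of amounts, so that only its change between groups has a meaning.

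Relative to miR-192-5p, miR-204-5p stood at -4.16, -4.28, -4.32 and -3.82 log2 units in UUO 1 to 4, against -5.25, -5.48, -5.48 and -5.32 in Sham 1, 2, 3 and 8. The groups were far apart, with UUO 4 the highest. UUO minus Sham was 1.24, which is a 2.36-fold change in favour of miR-204-5p. Relative to miR-194-5p the mean was -3.12 ± 0.22 in UUO and -4.31 ± 0.11 in Sham (SD, n = 4 each), a difference of 1.19 or 2.27-fold. Relative to miR-30a-5p it was -5.43 ± 0.13 in UUO and -6.29 ± 0.12 in Sham, a difference of 0.86 or 1.81-fold. Here all UUO samples were again above all Sham samples. Relative to miR-190a-5p the mean was 2.66 ± 0.19 in UUO and 1.27 ± 0.07 in Sham, a difference of 1.40 or 2.63-fold. In UUO 4 miR-190a-5p was at the floor of the scale, log2 -4.89, which can only make that last difference smaller.

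All 4 differences held in 4 of 4 UUO samples, and each had an exact permutation p of 0.0286 (2-sided), also after Benjamini-Hochberg adjustment over the 4, which is the smallest p the design allows. The comparators were chosen with earlier results of these data known, and the 4 tests share the values of miR-204-5p, so these p-values are a description and not independent support. Other kidney-enriched miRNAs, miR-10a-5p and miR-196a-5p, had differences closer to 0 than that of miR-204-5p in the fit across all miRNAs (0.00 and -0.01 on the log2 scale) and were likewise not called. The direction held with quantile normalization, normexp correction, the total signal and the deposited table. It was not computed again without scaling, with all mouse probes or with the dmr features. Quantile normalization, which does not use 1 factor per array, brought the difference to miR-30a-5p down to 0.21 with an adjusted p of 0.0857 (exact permutation test). The difference to miR-190a-5p was 0.42 with normexp correction and 0.61 with the floor raised 2 times. In the fit across all miRNAs, the comparators themselves fell in UUO, miR-192-5p by 1.14, miR-194-5p by 1.08, miR-30a-5p by 0.75 and miR-190a-5p by 1.29 on the log2 scale. All 4 were called, and called lower under each of the 8 scalings. In whole tissue, fewer cells of a type and less RNA per cell cannot be told apart.

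**Figure D3:**
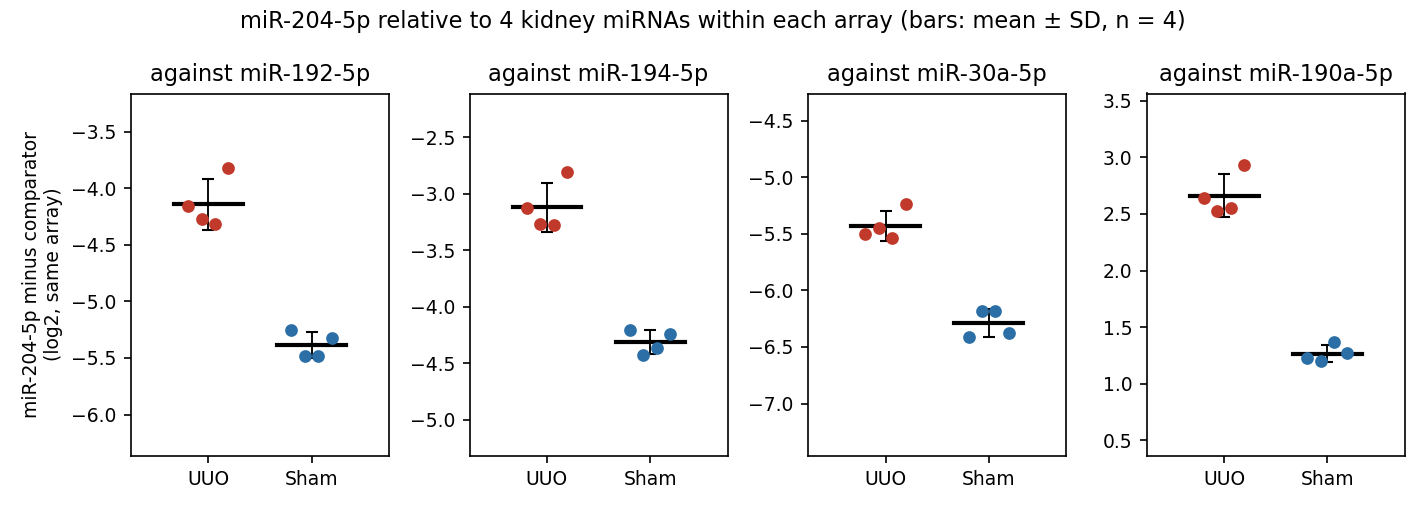
Log2 signal of miR-204-5p minus that of 1 comparator on the same array (y axis), in UUO (red) and Sham (blue) kidneys, with a panel for each of 4 kidney miRNAs. Points are samples, and bars are the mean and SD (n = 4 each). In each panel all 4 UUO samples lie above all 4 Sham samples, by 0.86 to 1.40 between the means.

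miR-204-3p, the other arm of the same hairpin, gave no measurable level in either group. At its 14-base probe the mean intensity was -0.818 ± 0.311 in UUO and -0.596 ± 0.356 in Sham, and at its 15-base probe 0.400 ± 1.10 in UUO and 0.362 ± 0.384 in Sham (SD, n = 4 each). The values lay around 0, which is what background subtraction leaves where there is no signal. The lowest intensity of any detected probe was 11.9 to 13.3 over the arrays, so a level below that cannot be seen. With both groups below background no fold is given. A 14-base or 15-base probe and a 20-base probe do not give comparable intensities, so that no ratio of the arms follows from these values.

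miR-211-5p was likewise not detected at any of its 4 probes. The 19-base probe averaged 1.43 ± 0.905 in UUO and 0.633 ± 0.790 in Sham, and the 20-base probe 1.94 ± 0.50 in UUO and 2.53 ± 1.5 in Sham (SD, n = 4 each). The 21-base probe averaged 3.75 ± 1.14 in UUO and 4.01 ± 0.527 in Sham. Groups overlapped at all 3 of these. The 22-base probe alone separated them, with 5.454, 4.589, 6.088 and 4.775 in UUO 1 to 4, against 3.829, 2.918, 2.384 and 3.048 in Sham 1, 2, 3 and 8. All of these values lay below the lowest detected probe, and the 95th percentile of the 1000 negative control spots was 3.71 to 4.62 over the arrays. On the same array that percentile was 3.795, 4.035, 3.901 and 3.714 for UUO 1 to 4, and each UUO value exceeded it. For Sham 1, 2, 3 and 8 it was 3.982, 4.583, 4.616 and 4.228, and every Sham value lay below it. The percentile is that of single spots, whereas the value of the 22-base probe averages 7 spots, so the comparison does not show whether signal was present. This separation at 1 undetected probe was not tested. The probes of miR-211-5p differ from those of the detected miR-204-5p by 1 base, and how much miR-204-5p binds to them was not tested.

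The other arm of miR-211, miR-211-3p, is not among the 3 miRNAs and was looked up after its values had been seen. It was bright on every array although the 5p arm of its hairpin was not detected. Its probes are among the shortest here, with 12 and 13 bases, and are complementary to the end of the miRNA that holds a run of 6 G.
miR-211-3p, 13-base probe: gcccccctttgct
The scaled log2 signal at the 13-base probe was -0.47, -0.82, -0.94 and -0.61 in UUO 1 to 4, against -1.5, -2.19, -2.07 and -2.22 in Sham 1, 2, 3 and 8. All UUO samples were above all Sham samples, and Sham 1 was the highest of its group. UUO minus Sham was 1.29 ± 0.17 on the log2 scale (SE, 95% interval 0.88 to 1.69), which is 2.44-fold, with an adjusted p of 0.000307 in limma. It was called higher under all 8 scalings, at 0.84 to 1.58. The mean intensity was 288 ± 52.3 in UUO and 104 ± 28.1 in Sham (SD, n = 4 each).

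The tested miRNAs whose profile over the 8 arrays was most like that of miR-211-3p were miR-8110, miR-5126, miR-135a-1-3p, miR-3102-5p and miR-149-3p. The root mean square difference of the centred log2 signals was 0.0555 to 0.113. The share of G and C over the probes of each of these 5 was 76.0 to 100.0%, and it was 72.0% for miR-211-3p, against a median of 54.8% over the 408 tested miRNAs. Whether the signal at the miR-211-3p probes is that of miR-211-3p was not tested.

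**Figure D4:**
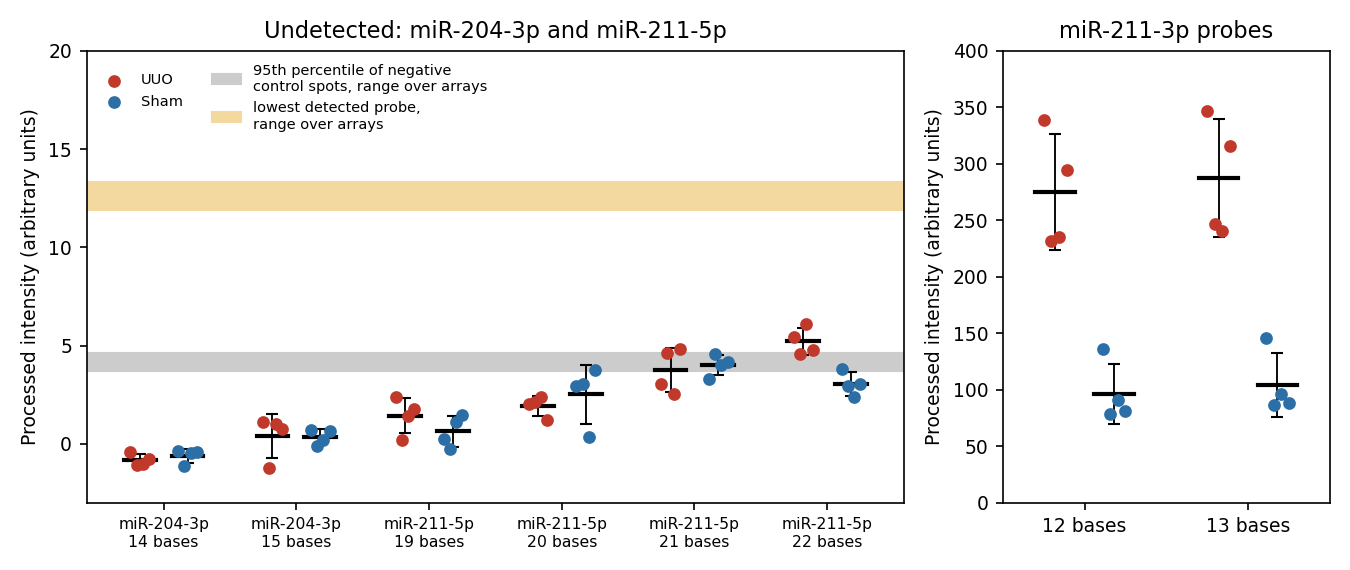
Processed intensity in arbitrary units (y axis) at the probes of miR-204-3p and miR-211-5p (left) and of miR-211-3p (right), by probe length, in UUO (red) and Sham (blue) kidneys. Points are samples, and bars are the mean and SD (n = 4 each). On the left all points lie below the range of the lowest detected probe, 11.9 to 13.3 (yellow band), and the grey band is the 95th percentile of the negative control spots. On the right, on another scale, the UUO samples lie above the Sham samples.

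The profile of miR-204-5p over the 8 arrays was most like those of miR-196b-5p, miR-324-5p, miR-28c, miR-361-5p and miR-872-5p, of 334 candidates detected on all arrays. The root mean square difference was 0.0556 to 0.0647 log2 units. Their UUO minus Sham differences lay between 0.06 and 0.18, the largest being 0.18 ± 0.05 (SE) for miR-28c with an adjusted p of 0.0189 in limma. For miR-324-5p it was 0.15 ± 0.05 (adjusted p = 0.0233), and the other 3 were not called. Each of these 5 changed sign under some of the 8 scalings, as miR-204-5p did.

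Among 16 kidney-enriched miRNAs, 15 were tested, of which 12 fell in UUO, none rose and 3 were not called. Most of the 12 are arms of the miR-30 family or come from the miR-192 and miR-194 clusters, so they are not independent of each other. The 4 comparators used within arrays are among the 12. The background for a lower call is the 27.7% given above. The 3 not called were miR-204-5p, miR-10a-5p (0.00 on the log2 scale) and miR-196a-5p (-0.01). Both miR-10a-5p and miR-196a-5p come from Hox gene clusters, as does miR-10b-5p, which was called lower (-0.31). Over the 8 scalings miR-10b-5p was called lower in 4. In the same scalings miR-10a-5p was called higher in 1 and lower in 2, and miR-196a-5p higher in 2 and lower in 2. The list's median change was -0.91, against 0.06 over all tested miRNAs. Over 12 settings of scaling, probe summary, floor and filter it ran from -1.23 to -0.61, with 10 to 15 members called lower and 0 to 3 higher. The largest falls were 1.29 for miR-190a-5p and 1.26 for miR-192-3p, the other arm of miR-192. The summed scaled signal of the list was 52.1 to 60.8 in UUO and 92.0 to 100.0 in Sham.

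Like miR-204 and miR-211, many miRNAs are made from introns of protein-coding genes. Of 35 such miRNAs from other host genes, 33 were tested, of which 12 rose, 16 fell and 5 were not called, where 39.7% of all tested miRNAs rose and 27.7% fell. Over the 12 settings 6 to 18 were called higher and 11 to 21 lower. Their median was -0.14, and over the 12 settings it ran from -0.48 to 0.16. Their changes spread widely in both directions. miR-874-3p of the Klhl3 gene fell by 1.45 on the log2 scale, and miR-190a-5p of Tln2 by 1.29. miR-342-3p of Evl rose by 1.71. miR-511-3p of the macrophage mannose receptor gene Mrc1 was detected in 4 of 4 UUO samples and in no Sham sample, at least 5.99-fold higher in UUO. It passed the filter through the UUO samples alone, so it had to differ and no p is given for it. That bound sets the mean log2 signal in UUO against the weakest signal detected on each Sham array, averaged over those arrays.

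miR-204 is also known from the eye, lens and islets, and 7 miRNAs typical of those tissues were looked at beside it. Of these 5 were tested, 4 rose and 1, miR-7a-5p, was not called at 0.13, where 39.7% of all tested miRNAs rose. Over the 12 settings 1 to 5 were called higher. Only 2 of the 5 were detected on all 8 arrays, and of those 1 rose, so the count of 4 rests in part on miRNAs that passed the filter through the UUO samples. miR-182-5p, a miRNA of sensory cells, rose by 1.26 on the log2 scale. miR-375-3p, abundant in islets, was detected in 4 of 4 UUO and 0 of 4 Sham samples, at least 2.94-fold higher in UUO. Like miR-511-3p, it passed the filter through the UUO samples alone, and no p is given. The median change of the 5 was 1.08, and over the 12 settings it ran from 0.27 to 1.34. For the 2 detected on all 8 arrays it was 0.50. Members near the floor in Sham enter the median of the 5, so miR-204-5p is not compared with it.

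Markers of other cells moved along with the group, and their counts stand beside 39.7% higher and 27.7% lower over all tested miRNAs. All 7 leukocyte miRNAs, of which 6 were detected on all 8 arrays, rose with a median of 2.03, among them miR-223-3p of myeloid cells by 2.30. Their summed scaled signal was 8.16 to 9.23 in UUO and 2.19 to 2.65 in Sham. Of 5 fibroblast and smooth muscle miRNAs, 4 rose, miR-214-3p by 2.42, miR-199a-5p by 1.95, miR-199a-3p by 1.80 and miR-143-3p by 0.24. The remaining one, miR-145a-5p, was not called, at -0.15. The summed signal of the 5 was 13.5 to 15.5 in UUO and 5.38 to 5.99 in Sham. Of 5 epithelial miR-200 family members, 3 fell, miR-200a-3p by 0.44, miR-200b-3p by 0.34 and miR-429-3p by 0.28. The other 2, miR-141-3p at 0.16 and miR-200c-3p at 0.25, were above 0 and not called. The summed signal of the 5 was 18.6 to 21.1 in UUO and 22.9 to 25.7 in Sham. Of 2 endothelial miRNAs, miR-126a-5p fell by 0.22 and miR-126a-3p was not called, with a summed signal of 10.67 to 12.39 in UUO and 12.5 to 13.2 in Sham. Of 3 red blood cell miRNAs, miR-451a fell by 0.84 and miR-144-3p by 0.81, with a summed signal of 2.12 to 3.84 in UUO and 3.71 to 5.46 in Sham. The small changes called in this paragraph, those of miR-143-3p, miR-126a-5p, miR-200a-3p, miR-200b-3p and miR-429-3p, were not called under every one of the 8 scalings. miR-126a-5p and miR-429-3p were each above 0 in 1 of them, and miR-143-3p was below 0 in 2. miR-145a-5p was called lower in 3, and miR-141-3p and miR-200c-3p were each called higher in 3. Over the 12 settings 0 to 3 of the 5 epithelial miRNAs were called lower and 0 to 2 higher, and 6 to 7 of the leukocyte miRNAs were called higher. Of the 5 fibroblast and smooth muscle miRNAs, 3 to 4 were called higher and 0 to 1 lower. The part of the tissue's cell make-up in the level of miR-204-5p was not tested.

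**Figure D5:**
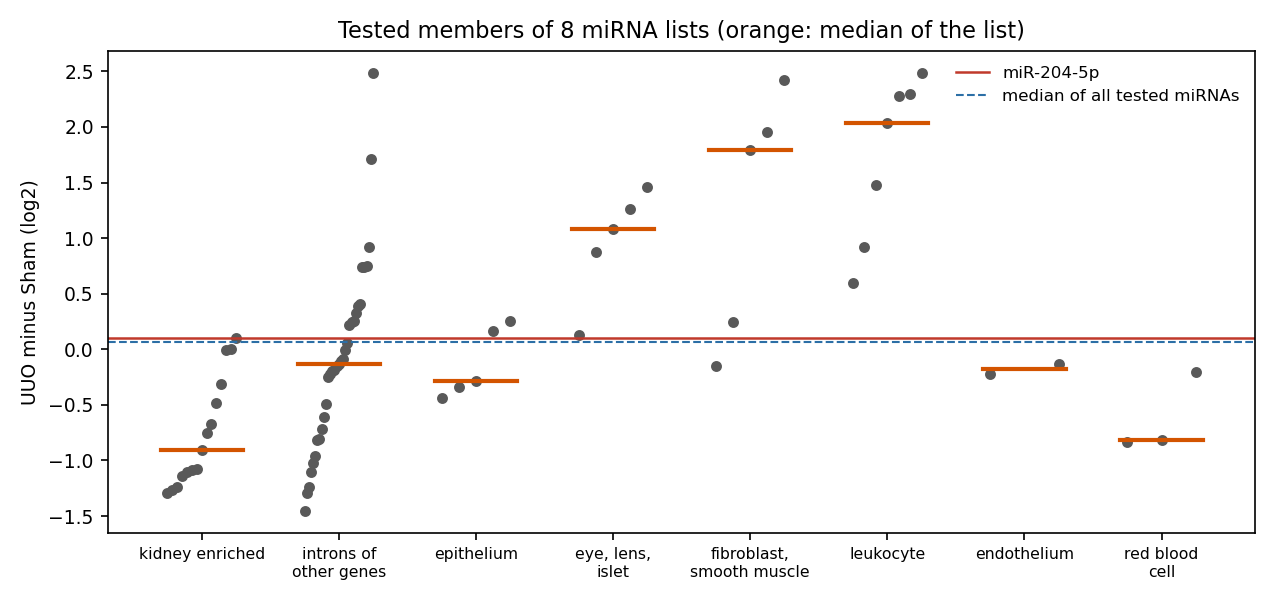
UUO minus Sham differences on the log2 scale (y axis) of the tested miRNAs of 8 lists (x axis), with 1 point per miRNA and the list's median in orange. The red line is miR-204-5p at 0.10 and the dashed blue line the median of all 408 tested miRNAs at 0.06. In the kidney-enriched list, where miR-204-5p is the highest point, 12 of 15 miRNAs fell, and all 7 leukocyte miRNAs rose.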

How the data were processed

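The deposited files of single arrays hold processed spot intensities made by the authors with Agilent Feature Extraction 10.7.3.1, per the file headers. A spatial background surface had been subtracted, without multiplicative detrending, and probe positions are listed on mm9. The intensities are linear, can be negative and carry no normalization between arrays. The series-wide table deposited by the authors holds ratios. Each ratio was found to be the software's summed intensity of a miRNA, multiplied by a factor that was constant within an array and centred per miRNA. No source used here gives the basis of that factor. Its column medians were 0.809, 0.903, 0.867 and 0.766 for UUO 1 to 4 and 1.11, 1.26, 1.28 and 1.11 for Sham 1, 2, 3 and 8. The table served as an alternative.

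Of the 56430 mouse spots, 2.64 to 2.95% per array were outliers and were dropped, and the others were averaged per probe. A probe was detected where over 50% of its spots were well above background. Intensities were scaled to the 75th percentile of the 623 probes seen on all arrays. A common floor (log2 -4.89) was then set, equal to the weakest detected signal of the array where that was highest. The brightest probe stood for a miRNA, and those detected on at least 4 of 8 arrays were tested with limma 3.58.1 (R 4.3.3) for the effect of group alone. Calls are at a Benjamini-Hochberg adjusted p under 0.05. The fit was tested on simulated data. miR-204-3p and miR-211-5p could not be fitted because no array detected them.

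The miRNAs and lists were chosen with earlier results of these data known. Named were the 3 miRNAs with every probe, 4 comparators, the 5 nearest profiles, the 3 nearest probes and up to 2 called members per list and direction. miR-211-3p with its nearest profiles, and the remaining members of small counts, were added after their values were seen.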

Additional observations from a re-analysis of the deposited data

How the results depend on the processing

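The log2 difference of miR-204-5p (UUO minus Sham, 0.10) was past the threshold at 0.24 with the 75th percentile over all mouse probes, 0.30 without scaling and 0.40 with the dmr features. It turned to -0.29 with quantile normalization, -0.24 with the total signal and -0.20 with the deposited table. Leaving out 1 sample at a time gave 0.0846 to 0.134, past the threshold only without UUO 3. The cause was not tested. The within-array difference to miR-30a-5p lost its call with quantile normalization (0.21). Leaving out 1 sample gave 1.13 to 1.30 against miR-192-5p, 1.08 to 1.24 against miR-194-5p, 0.79 to 0.89 against miR-30a-5p and 1.30 to 1.44 against miR-190a-5p, each with an adjusted p of 0.0286 (exact permutation test), the smallest possible. Lower calls numbered 59 of 408 tested miRNAs with the dmr features, against 113 of 408. They numbered 217 of 499 with the total signal and 207 of 499 with the deposited table. There more miRNAs passed the filter, so these counts are not over the same set. The split of higher and lower calls was 162 and 113, against 194 and 84 with all mouse probes and 212 and 77 without scaling. It was 238 and 59 with dmr and 127 and 162 with quantile normalization, each over 408 miRNAs. With normexp it was 115 and 133 of 407. Over 499 miRNAs it was 109 and 217 with the total signal and 118 and 207 with the deposited table.

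Groups share the numbers 1 to 3, and the labels do not say what a shared number means. The correlations of same-numbered deviations were -0.000808, 0.124 and -0.303, and no sample matched its own number best. So few correlations cannot show whether same-numbered samples were paired. With number as a replicate block, which drops UUO 4 and Sham 8, miR-204-5p was at 0.09 (adjusted p = 0.280 in limma), and 142 miRNAs were called higher and 84 lower. The same 6 samples without the block gave an adjusted p of 0.225, and 146 higher and 98 lower calls. Signals under the lowest detected probe limit what can be said of miR-204-3p and miR-211-5p, which stayed undetected on 8 of 8 arrays by the software's own call too.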
